A study of Mus musculus with 60 samples.

Results

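Acetylation of histone H4 at lysine 8 (H4K8ac) was mapped by CUT&RUN, in which an antibody directs a nuclease to cut out the chromatin that carries the mark, and the subject here is the set of intergenic H4K8ac peaks found in every peak list of the study. The anchor was the list of sedentary right hippocampi. Of its 25159 peaks, 7505 were annotated distal intergenic, and 1063 of those (14.2%) were overlapped by at least 1 bp by a peak in each of the other 5 H4K8ac lists. These 1063 regions are called members below. Over all annotation classes 3783 of the 25159 peaks (15.0%) met the same condition, so presence in all lists was no more frequent among intergenic peaks than among the rest. The members were thus chosen by measured peak calls, and their presence in the lists is given only as a description.

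Neurons came from the hippocampus of Emx1-NuTRAP mice, in which Emx1-Cre drives a cassette that tags nuclei and ribosomes, so that the nuclei of Emx1-lineage cells, mainly excitatory neurons, can be pulled out of whole tissue. The nuclei carry this transgene in every group, controls included. Male mice either stayed sedentary or were housed with free access to a wheel between postnatal days 21 and 41, called early-life exercise (ELE), and the labels give no memory training time for these samples. Nuclei were taken from both hippocampi together by simultaneous INTACT and TRAP (SIT, 4 samples per condition), or from the left or the right hippocampus alone with separate isolations (3 samples per hemisphere and condition). The 6 H4K8ac lists were sedentary SIT, exercised SIT, sedentary left, exercised left, sedentary right and exercised right. Each list pools its samples, so every value below is 1 value per list with no replicate error, and the exercised against sedentary contrast has 3 arms (SIT, left, right). The study's methods state that several exercised H4K8ac samples, most of them from the separate isolations and the rest from SIT, were left out at peak calling. The values of all 3 exercised lists may therefore rest on fewer samples than the labels count, and the lists do not show which samples each one holds. A figure of the study that sets peaks beside gene expression also counts fewer sedentary mice than the SIT labels. The sedentary SIT list may therefore rest on fewer samples too.

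H4K8ac is a mark of open, transcribed or transcription-ready chromatin, found at active promoters and at enhancers. Enhancers are stretches of DNA that bind transcription factors and raise the transcription of a gene that can lie far away, and many neuronal genes sit beside wide intergenic deserts that hold them. A distal peak is assigned in the files to the gene with the nearest start site, which need not be the gene it acts on. H3K27me3, the second mark of the study, is laid down by Polycomb complexes and marks repressed chromatin.

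Sequence from 8 members is shown to give the letters behind the features described below: the widest member (Ccnh), the widest member of the gene with the most members (1810007C17Rik), and members assigned to a glutamate receptor (Gria2), to 3 transcription factors (Zeb2, Bhlhe22, Lef1) and to 2 activity-induced genes (Btg2, Scg2). Each run is the middle 200 bases of the longest stretch covered by all 6 lists, on the plus strand of mm10 as read from GRCm38.p6. All 8 are intergenic in the files. The coordinates are, in order, chr13:84755597-84755796, chr12:49950340-49950539, chr3:80542231-80542430, chr2:45181950-45182149, chr3:18060286-18060485, chr1:134060778-134060977, chr1:79450383-79450582 and chr3:131085058-131085257. Capitals mark a match to any of the 13 motifs searched on both strands.
Ccnh: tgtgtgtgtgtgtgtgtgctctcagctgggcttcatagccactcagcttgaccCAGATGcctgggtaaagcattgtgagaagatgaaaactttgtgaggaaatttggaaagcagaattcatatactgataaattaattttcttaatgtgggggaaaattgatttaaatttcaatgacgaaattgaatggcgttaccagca
1810007C17Rik: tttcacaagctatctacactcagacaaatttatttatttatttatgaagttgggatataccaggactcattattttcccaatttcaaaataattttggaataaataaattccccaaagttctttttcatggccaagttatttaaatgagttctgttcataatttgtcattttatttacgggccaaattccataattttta
Gria2: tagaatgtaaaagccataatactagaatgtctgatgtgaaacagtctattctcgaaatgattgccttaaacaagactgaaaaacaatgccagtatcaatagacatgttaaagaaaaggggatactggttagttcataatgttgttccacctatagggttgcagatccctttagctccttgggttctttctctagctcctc
Zeb2: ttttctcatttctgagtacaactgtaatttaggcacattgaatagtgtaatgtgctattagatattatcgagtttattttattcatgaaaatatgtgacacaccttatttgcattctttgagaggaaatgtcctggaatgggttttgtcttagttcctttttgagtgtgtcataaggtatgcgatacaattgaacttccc
Bhlhe22: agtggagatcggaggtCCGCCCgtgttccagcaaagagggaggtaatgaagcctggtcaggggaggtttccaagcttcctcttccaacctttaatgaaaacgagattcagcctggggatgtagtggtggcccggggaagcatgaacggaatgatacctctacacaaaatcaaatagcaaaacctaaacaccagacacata
Btg2: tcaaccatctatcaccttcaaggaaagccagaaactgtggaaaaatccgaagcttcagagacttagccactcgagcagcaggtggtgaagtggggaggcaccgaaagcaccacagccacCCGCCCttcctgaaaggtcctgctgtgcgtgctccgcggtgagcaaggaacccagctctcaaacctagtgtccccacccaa
Scg2: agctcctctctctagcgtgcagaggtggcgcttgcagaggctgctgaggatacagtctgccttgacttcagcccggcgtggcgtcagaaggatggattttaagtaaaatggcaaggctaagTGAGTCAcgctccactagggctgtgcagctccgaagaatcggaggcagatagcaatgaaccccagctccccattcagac
Lef1: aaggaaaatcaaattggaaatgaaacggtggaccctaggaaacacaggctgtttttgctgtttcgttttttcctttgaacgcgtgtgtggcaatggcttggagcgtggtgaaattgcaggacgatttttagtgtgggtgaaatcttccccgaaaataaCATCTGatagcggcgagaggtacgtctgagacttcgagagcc
The capitals are an E-box of the NEUROD type (CAGATG or its reverse complement) in the Ccnh and Lef1 runs, an SP/KLF box (GGGCGG or its reverse complement) in Bhlhe22 and Btg2, and an AP-1 match in Scg2. No motif of the 13 was found in the 1810007C17Rik, Gria2 and Zeb2 runs. Runs taken in the same way at Zbtb18, Dlx2, Nr4a3, Mat2b and Neurod2 are not shown, and none of them held a match. The runs shown therefore hold matches more often than all runs taken. Base composition differed widely among these stretches. The 1810007C17Rik run held 27% G and C and the Zeb2 run 33.0%, whereas the Btg2 run held 56.0% and the Scg2 run 55.5%.

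The lists differed in size and in how many distal anchor peaks they overlapped. They held 30358 (sedentary SIT), 38136 (exercised SIT), 36425 (sedentary left), 12168 (exercised left), 25159 (sedentary right) and 13715 (exercised right) peaks. The files give no read depth. The exercised left list overlapped 30.2% of the distal anchor peaks and the exercised right list 32.7%, against 56.7% to 72.3% for the other 3 lists. Missing from exercised left alone kept out 561 distal peaks, and missing from exercised right alone kept out 482. Peak widths in some lists also stepped between chromosomes. In the sedentary left list the median width per chromosome was 1382.5 to 1631 bp on chromosomes 1 to 14 and 1162 to 1212 bp on chromosomes 15 to 19, and in exercised SIT it was 1639 to 1941 bp on chromosomes 1 to 17 and 1410.5 to 1465 bp on chromosomes 18 and 19. The exercised left list held 43 peaks (0.353%) on chromosome 19 and 1 on X. By the rule, every member on these chromosomes has to overlap such a peak. Among distal peaks, 5 of 96 on chromosome 19 and 1 of 41 on X were members, against 106 of 549 (19.3%) on chromosome 12 and 82 of 456 on chromosome 13. The part of these list properties in the choice of members was not tested.

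The labelled cell type was checked at the promoters of marker genes. An H4K8ac promoter peak was listed for 1 to 3 of 6 excitatory neuron markers per list, and for 0 of 5 interneuron markers (Gad1, Gad2, Slc32a1, Lhx6, Dlx1) in every list. Astrocyte markers had one for 0 to 2 of 5, oligodendrocyte markers for 1 to 2 of 6, and microglial and endothelial markers for 1 to 2 of 6. H3K27me3 promoter peaks were listed for 3 or 4 of the 5 interneuron markers, 2 or 3 of the 5 astrocyte markers, 2 or 3 of the 6 oligodendrocyte markers, and 1 or 2 of 6 in both the excitatory and the microglial and endothelial sets. Among the excitatory markers, Neurod2 also had a member.

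Members were wide peaks. Their median width in the anchor list was 2973 bp (quartiles 2181 and 4132.5 bp), against 1791 bp for the other 6442 distal peaks and 1880 bp for all peaks of the list. A wide peak has more chances to be touched by another list, so width and membership are tied by the rule. With distal peaks split by width into 5 bins of similar size, 3.92% of the narrowest bin (682 to 1470 bp) and 40.9% of the widest (2679 to 25060 bp) were members. The stretch of a member covered by all 6 lists was shorter, with a median of 989 bp (quartiles 483.5 and 1402.5 bp). In 122 members the 6 lists shared no base, although each list touched the member, so that the widths compared there are of peaks with no common stretch. Among members whose widths are given below these are the ones at Nr4a1, Ptprs, Pcdh20 and Olfm4, the Zbtb18 member at chr1:177497339-177502126 and the Zeb2 member at chr2:45228753-45232885. The Mir6366 member, given below by its mean ratio alone, is another. In 523 they shared at least 1000 bp. In 1017 members (95.7%) the overlapping peaks were annotated distal intergenic in all 6 lists.

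At the edge of the rule, the smallest lowest overlaps were 6 bp (Tdrd3, chr14:87859981-87862531), 7 bp (Zbtb18, chr1:177364152-177366341) and 14 bp (Irf2bpl, chr12:86826126-86828410). Just outside, a distal peak assigned to Prkd1 (chr12:50301002-50303799) abutted a peak of the exercised right list without sharing a base. One assigned to Nmur2 (chr11:56242703-56247133) missed sedentary SIT by 6 bp, and one assigned to Brinp1 (chr4:69114831-69116451) missed exercised right by 7 bp.

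The member with the largest median width over the 6 lists lay at chr13:84740886-84765945, in the desert 423463 bp upstream of Ccnh, which encodes cyclin H. Its peaks spanned 21272 bp in sedentary SIT and 26891 bp in exercised SIT, 26771 and 21177 bp in sedentary and exercised left, and 25060 and 22218 bp in sedentary and exercised right. All 6 lists covered an unbroken 16396 bp of it. The next, assigned to the microRNA gene Mir145b (chr18:69120874-69135610), measured 13074 bp in sedentary SIT, 15120 bp in exercised SIT, 13306 and 12386 bp in sedentary and exercised left, and 14737 and 10992 bp in sedentary and exercised right. The nearest protein-coding start was that of Tcf4, a basic helix-loop-helix transcription factor of neurons, 207746 bp away. The third, at chr12:49943833-49956448 and assigned to the non-coding gene 1810007C17Rik, measured 10840 to 14585 bp across the lists. In these 3 members the exercised SIT peak was wider than the sedentary SIT peak, and both exercised separate peaks were narrower than their sedentary counterparts.

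The remaining members among the widest 5 varied more between lists. A member assigned to Zbtb18 (chr1:177462337-177463781) was covered by peaks of 14384 and 15192 bp in sedentary and exercised SIT. In the separate isolations the peaks measured 1662 and 12869 bp (sedentary and exercised left) and 1445 and 12476 bp (sedentary and exercised right). The overlapping peaks were annotated distal intergenic in 2 of the 6 lists. Zbtb18 encodes a zinc-finger repressor required for excitatory neuron development. The 2 narrow values were those of the sedentary separate lists, and the sedentary SIT value was with the wide ones, so sedentary and exercised values overlapped. The member assigned to Mat2b (chr11:40545175-40561168), a regulatory subunit of methionine adenosyltransferase, measured 8914 and 16878 bp in SIT, 14597 and 8205 bp on the left, and 15994 and 9254 bp on the right (sedentary first).

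Across all members, the exercised list had wider peaks in SIT and narrower peaks in both separate arms. The median width over a member was 2438 bp in sedentary and 3506 bp in exercised SIT, 3129 and 2425 bp on the left, and 2973 and 1889 bp on the right. The median log2 ratio of exercised to sedentary width was 0.53 in SIT (quartiles 0.10 and 1.04), -0.37 on the left (-0.82 and 0.14) and -0.58 on the right (-1.02 and -0.16). Members were wider in the exercised list in 862 of 1063 cases in SIT, 337 on the left and 190 on the right. The same medians over the 3783 peaks of any class in all lists were 0.53, -0.34 and -0.52, and over the 1059 promoter peaks in all lists 0.53, -0.29 and -0.50. The direction in each arm was therefore that of the peaks present in all 6 lists. The sedentary right list is the anchor, and its wide peaks were more often members. The right ratio thus divides by widths tied to the choice, and so it does for peaks of any class and promoter peaks. Each anchor width is that of a single peak, whereas several peaks could be summed in the other lists. The part of this in the right ratio was not tested. Over whole lists the median widths gave 0.52, 0.28 and -0.26, so on the left the members went the other way from their lists. With each width divided by the median of its list, the 3 member medians became 0.01, -0.66 and -0.32.

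**Figure D1:**
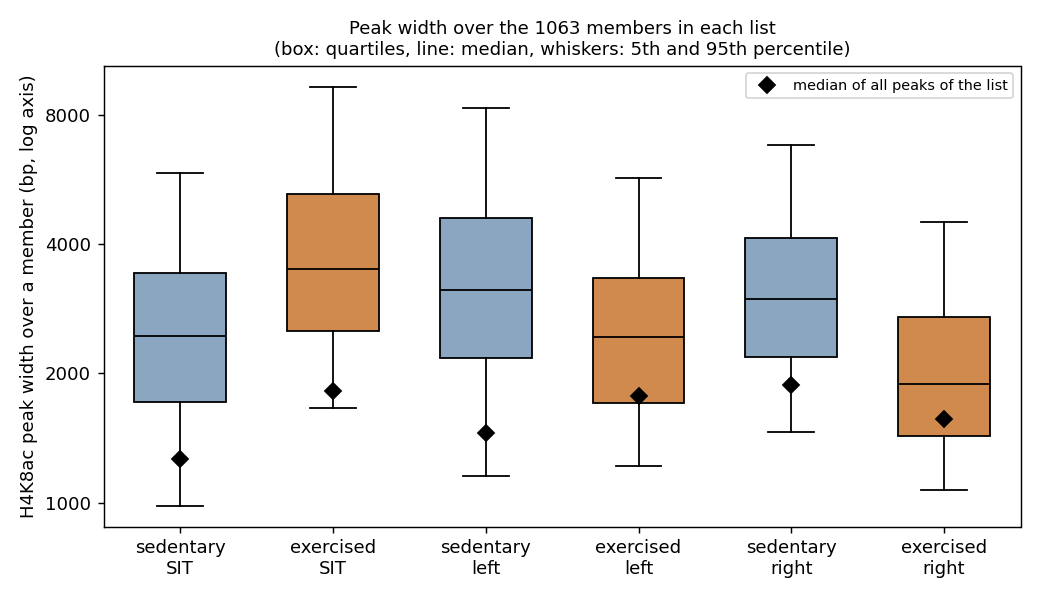
Width of the H4K8ac peaks over the 1063 members in each list (bp, log axis), with boxes from the first to the third quartile and whiskers at the 5th and 95th percentile. Diamonds mark the median of all peaks of the list, and member medians run from 1889 bp in exercised right to 3506 bp in exercised SIT.

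**Figure D2:**
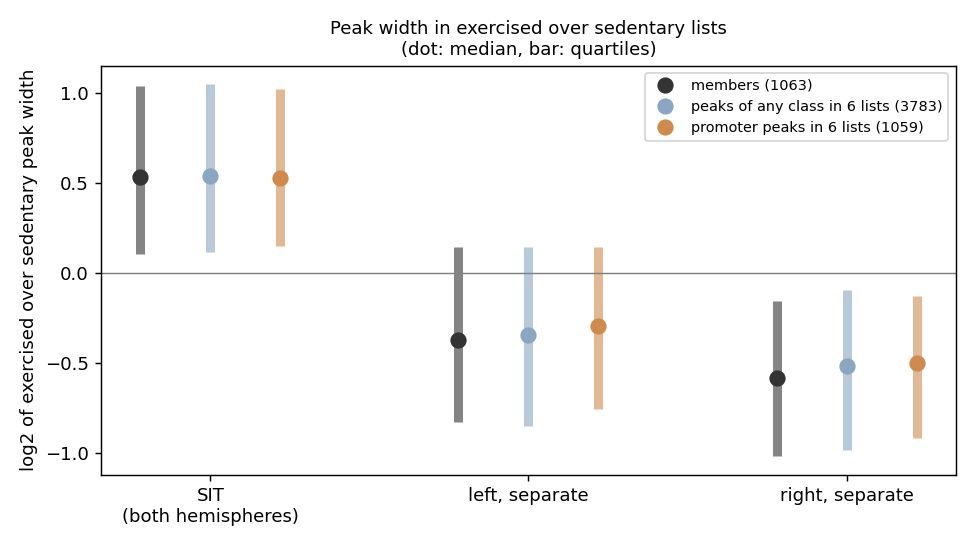
Log2 of exercised over sedentary peak width in the 3 arms, with dots at medians and bars from the first to the third quartile. Members (0.53, -0.37 and -0.58) sit beside peaks of any class and promoter peaks in every arm.

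At least 2-fold wider peaks in the exercised list were found at 287 members in SIT (background over peaks of any class in all lists 27.1%), 54 on the left (5.58%) and 20 on the right (2.27%). At least 2-fold narrower peaks were found at 14 (1.37%), 202 (20.0%) and 275 (24.0%) members. The background includes the members themselves. As shares of the 1063 members, wider peaks made 5.08% on the left and 1.88% on the right, and narrower peaks 1.32% in SIT and 25.9% on the right, close to the background in each case. On chromosomes 1 to 14 alone, the left arm had 26 wider members (2.78%) in place of 54, beside 2.68% of the peaks of any class there.

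All 3 exercised widths lay above all 3 sedentary widths at 14 members (1.32%, background 1.93%) and below them at 48 (4.52%, background 4.36%). The same direction in all 3 arms, without that gap, was seen at 59 members for wider (background 6.08%) and at 101 for narrower (background 9.78%). With 1 list per group and arm these are descriptions. Among members wider in all 3 arms, the largest mean ratios were those of the Zbtb18 member above (4.13), a member assigned to Mir6366 (2.41, chr16:18153076-18156160, distal intergenic in 3 of the 6 lists) and one assigned to 4930568G15Rik (2.38, chr1:165045031-165046146). The last measured, in the order SIT, left, right, 1949, 2004 and 1116 bp when sedentary and 8153, 2874 and 2522 bp when exercised, without overlap. Among members narrower in all 3 arms, the smallest mean ratios were at Cdc73 (0.335, chr1:142409202-142417526), Fbxo33 (0.371, chr12:59263390-59266892) and Rtn4rl2 (0.397, chr2:84892113-84894583). Cdc73 encodes a subunit of the PAF1 transcription elongation complex, and Rtn4rl2 a homologue of the Nogo receptor that limits axon growth. In the same order the Fbxo33 member measured 6359, 8292 and 3503 bp when sedentary and 2967, 2716 and 1170 bp when exercised. Its groups did not overlap either.

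Comparisons between hemispheres and isolations depended on how widths were scaled. The median log2 ratio of left to right width over members was 0.03 in sedentary and 0.28 in exercised lists. The sedentary right widths are those of the anchor list, by which members were chosen. Exercised SIT peaks were wider than exercised left peaks (median 0.51) and exercised right peaks (0.83), whereas sedentary SIT peaks were narrower than sedentary left (-0.36) and sedentary right peaks (-0.28). Over peaks of any class the same 4 SIT values were 0.48, 0.75, -0.38 and -0.30. Divided by list medians, left over right became 0.40 in sedentary and 0.10 in exercised lists, so the larger value moved from the exercised to the sedentary pair. On that scale sedentary SIT over sedentary right turned from -0.28 to 0.29, while exercised SIT stayed wider than exercised left (0.47) and exercised right (0.62).

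Members lay nearer to genes than the other distal peaks. Their median distance to the assigned start site was 59342 bp (quartiles 22203.5 and 141446.5 bp), against 75313.5 bp for the others. Of the members 104 (9.78%) were under 10 kb from it, 595 (56.0%) at 10 to 100 kb and 364 (34.2%) at 100 kb or more, against 8.21%, 49.5% and 42.3% of the others. Beyond 500 kb lay 4.89% of members and 8.88% of the others. Restricting both sets to widths between the member quartiles left 54204 bp for members and 83777 bp for other peaks. The median widths within that range were still 2973 bp and 2616 bp, so width was matched only in part, here and below. Upstream of the start site lay 55.1% of members and 53.8% of the others. The intergenic label was checked against GENCODE M21, on the same genome build. It placed 5 members (0.47%) and 5 other distal peaks (0.078%) within a gene of any kind, and none of either set within a protein-coding gene. An annotated start lay within 1000 bp of 19 members (1.79%) and 89 others (1.38%). To the nearest start of any GENCODE gene the median distance was 20196 bp for members and 25600 bp for the others.

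**Figure D3:**
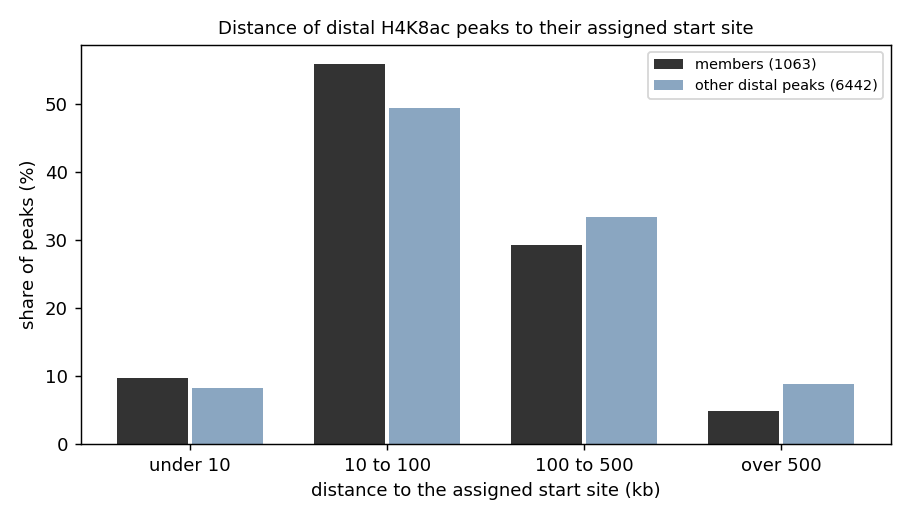
Share of distal H4K8ac peaks (%) by distance to the assigned start site (kb) for the 1063 members and the 6442 other distal peaks of the anchor list. Members have the larger share at 10 to 100 kb (56.0% against 49.5%) and the smaller share beyond 500 kb (4.89% against 8.88%).

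The farthest members were assigned to Olfm4 (1954592 bp, chr14:81954894-81959102), Cdh11 (1538009 bp, chr8:101096256-101099310) and Dsel (1532330 bp, chr1:113397248-113400802). The Olfm4 member measured 4209 bp in the anchor list and 984 bp in exercised right, and the lists shared no base of it. The nearest were at Sag (3115 bp upstream, chr1:87797210-87800565), at 4930431P22Rik (3189 bp downstream, chr14:76763320-76767323) and at Egr1 (3315 bp upstream, chr18:34854294-34856508). All 3 lay just past the 3 kb that the annotation counts as promoter.

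The gene assigned to a member more often had an H4K8ac peak at its promoter. In the anchor list this held for 557 members (52.4%, exact 95% interval 49.3 to 55.4) and 2710 other distal peaks (42.1%, 40.9 to 43.3). The share for members was above that for other distal peaks in each of the 6 lists. It ran from 36.5% (exercised left, others 26.1%) to 64.7% (exercised SIT, others 51.7%). Counted over genes, 46.3% of the 704 genes with a member and 33.1% of the 2331 genes with other distal peaks alone had a promoter peak in the anchor list. A promoter peak in all 6 lists was found for the gene of 234 members (22.0%) and 964 other distal peaks (15.0%). Between the member width quartiles the anchor shares were 52.4% and 45.0%. The intervals cover counting error alone, and members of one gene share its promoter.

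H3K27me3 was rare at members and at other distal peaks alike. At least 1 of the 6 H3K27me3 lists overlapped 6 members (0.564%, exact 95% interval 0.207 to 1.22) and 52 other distal peaks (0.807%). The widest was assigned to Cbx8, itself a Polycomb subunit (chr11:119053577-119058824), where exercised SIT alone covered 67 of 5248 bp. The member at 1810024B03Rik (chr2:127181600-127184427) was overlapped by all 6 H3K27me3 lists, over 17 to 333 bp. The Lef1 member (chr3:131084457-131086107), assigned to an effector of Wnt signalling, was covered over its whole 1651 bp by exercised SIT and over 1374 bp by sedentary right. The 1810024B03Rik and Lef1 members were singled out after their values were seen. An H3K27me3 peak at the promoter of the assigned gene was listed for 5.74% of members and 8.07% of other distal peaks in the sedentary right list, and for 2.35% and 4.25% in exercised right.

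Most members had no other member close by. Within 12.5 kb of another member lay 251 members (23.6%), in 105 groups of up to 5. Of all 7505 distal peaks, a denser set, 44.2% had a distal neighbour within that distance. The widest of the larger groups spanned 57.5 kb near Mat2b (chr11:40545175-40602652) with 4 members of 28.6 kb in sum. Groups of 5 lay at Chst1 (chr2:92669226-92713527) and Mir6390 (chr14:105694720-105734353). Chst1 encodes a keratan sulfate sulfotransferase, and the protein-coding gene next to Mir6390 was Spry2, an inhibitor of growth factor receptor signalling. When links up to 50 kb were allowed, the largest group had 10 members over 128 kb at Irf2bpl and Cipc (chr12:86814996-86943138). The members fell in 541 windows of 1 Mb, and 42 windows held at least 5. Those 42, picked by their member count, held 292 members (27.5%) and 11.1% of all distal peaks. In other lists a single peak could cover a pair of members, which was the case for 33 members in exercised right and 79 in exercised SIT, so neighbouring members are not independent.

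The 1063 members were assigned to 704 genes, of which 525 had 1 member, 99 had 2 and 80 had 3 or more. The most were 9 at 1810007C17Rik (chr12:49620333-49966883), then 8 each at Gria2, Olfm4 and 4930548K13Rik. With 7 members, Tmem161b had the largest summed width (42070 bp) of the 4 genes with that number. The 8 Gria2 members lay 125972 to 380498 bp from its start and were 8 of its 20 distal peaks. Gria2 encodes the AMPA receptor subunit that makes the channel impermeable to calcium. Its widest member (chr3:80539711-80550566) measured 4553 and 9104 bp in sedentary and exercised SIT, 9076 and 5078 bp on the left, and 10856 and 2846 bp on the right. Another (chr3:80666666-80670087) measured 4115 and 16769 bp, 11176 and 9154 bp, and 3422 and 2623 bp in the same order. Both were wider in the exercised list in SIT and narrower in it on the left and right. The 16769 bp peak of exercised SIT also covered 2 further Gria2 members.

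Transcription factors of excitatory neurons and the hippocampus had 13 members at 5 genes, 1.22% of members against 0.885% of other distal peaks. The genes were Zeb2 (6 members), Zbtb18 (4), and Neurod2, Bhlhe22 and Lef1 (1 each). Zeb2 encodes an E-box binding repressor that acts in neuronal development. Its widest member (chr2:45180638-45186238, 63243 bp upstream) measured 4792 and 6369 bp in SIT, 5635 and 6281 bp on the left, and 5601 and 4424 bp on the right (sedentary first). A second (chr2:45228753-45232885) measured 1344 and 6732 bp, 7037 and 5950 bp, and 4133 and 1441 bp. A pair of farther Zeb2 members was among the 14 whose exercised widths lay above all sedentary widths. At chr2:45282143-45283723 the sedentary SIT, left and right values were 2093, 1779 and 1581 bp and the exercised values 6575, 3588 and 2229 bp. At chr2:45338509-45341324 they were 2938, 1955 and 2816 bp and 3110, 5343 and 3242 bp. These 2 were singled out after their values were seen.

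**Figure D4:**
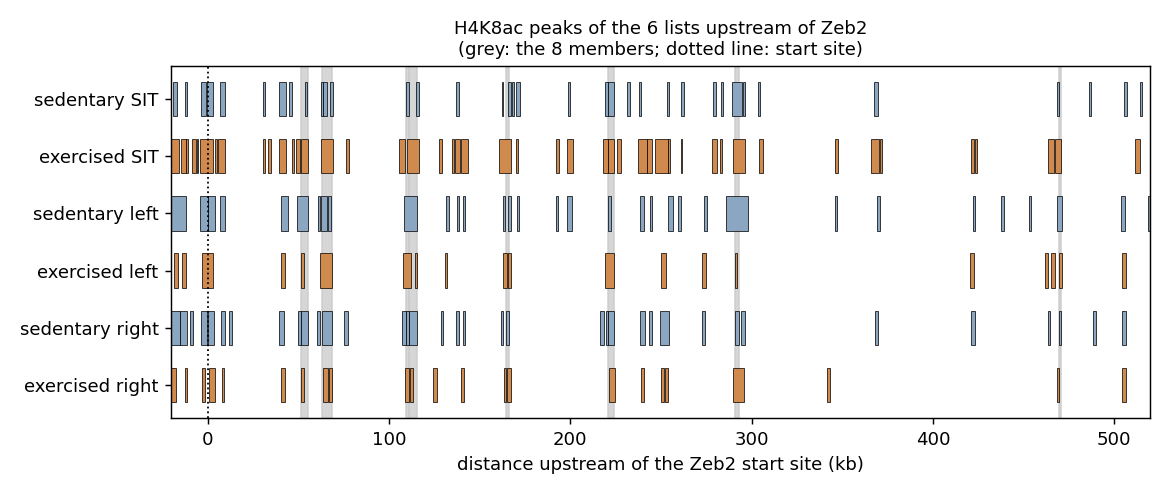
H4K8ac peaks of the 6 lists against distance upstream of the Zeb2 start site (kb), sedentary lists in blue and exercised lists in orange. Grey bands mark the 8 members within 500 kb, of which 6 are assigned to Zeb2 and 2 to 1700019E08Rik, and each band is touched by a bar in every list.

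Counted by start sites within 500 kb in place of the assigned gene, 42 members (3.95%) and 2.97% of other distal peaks lay near a gene of this list. Zeb2 had 8 of its 25 distal peaks as members and Zbtb18 6 of 19. Of the 6 near Zbtb18, the member at chr1:177492773-177497073 measured 6408 and 13493 bp in SIT, 3566 and 2829 bp on the left and 4301 and 3505 bp on the right, and its neighbour at chr1:177497339-177502126 shared both SIT peaks. The 2 members assigned to other genes differed from this pair. At chr1:177682483-177687297 the widths were 4882 and 4759 bp, 4544 and 4923 bp, and 4815 and 3346 bp, and at chr1:177338252-177340098 they were 1749 and 2630 bp, 1711 and 1772 bp, and 1847 and 1617 bp. The Bhlhe22 member (chr3:18059915-18062280, 5741 bp downstream), at a gene for a basic helix-loop-helix repressor, measured 1428 and 5392 bp, 6620 and 2302 bp, and 2366 and 5380 bp. The Neurod2 member (chr11:98293982-98299801), at a differentiation factor of excitatory neurons, measured 1666 and 6672 bp, 2644 and 2524 bp, and 5820 and 3465 bp, and was named after its values were seen.

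Activity-induced genes, which neurons transcribe within minutes to hours of firing, had 6 members at 6 genes, 0.564% of members against 0.404% of other distal peaks. At Btg2, an antiproliferative factor (chr1:134059573-134064313), the widths were 3851 and 4903 bp in SIT, 4992 and 4633 bp on the left and 4741 and 3047 bp on the right. At the nuclear receptor gene Nr4a3 (chr4:47945207-47950000) they were 3086 and 5132 bp, 4764 and 3132 bp, and 4794 and 3022 bp. At its paralogue Nr4a1 (chr15:101240624-101241764) they were 2004 and 4132 bp, 1169 and 1640 bp, and 1141 and 1348 bp, wider in the exercised list in each arm. The Egr1 member measured 2145 and 2053 bp, 3089 and 1585 bp, and 2215 and 1747 bp. Egr1, an immediate early zinc-finger factor, was one of the 48 members whose exercised values all lay below the sedentary values. Members at Scg2, the precursor of secretoneurin (chr1:79449573-79451932), and at Klf4 (chr4:55650232-55652150) measured 1445 to 2365 bp and 1113 to 1919 bp across the lists, with sedentary and exercised values overlapping.

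Glutamate and GABA receptor genes had 12 members, 1.13% against 0.838% of other distal peaks. Apart from the 8 at Gria2 they were assigned to the GABA receptor subunits Gabra2 (2) and Gabrb2 (1) and to the NMDA receptor subunit Grin2b (1). The Grin2b member (chr6:136238847-136241896) measured, in the order SIT, left, right, 4500, 8177 and 3050 bp when sedentary and 2795, 2397 and 1220 bp when exercised, without overlap, and was singled out after its values were seen. Potassium, sodium and calcium channel genes had 15 members at 8 genes, 1.41% against 1.66% of other distal peaks. Among the wide ones was that at Kcna4, a voltage-gated potassium channel (chr2:107726668-107733267, 3463 to 8043 bp). It measured 5172 and 8043 bp in SIT, 5236 and 3463 bp on the left and 6600 and 4218 bp on the right, wider in the exercised list in SIT and narrower in it on both sides.

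Among genes of cell contact, the synaptic list had the lowest share of members. Synaptic adhesion and scaffold genes had 4 members (0.376%) and 101 other distal peaks (1.57%), so 3.81% of their distal peaks were members, against 14.2% of all distal peaks. The widest of these were at the receptor phosphatase gene Ptprs (chr17:56404692-56409429), at 1540 to 5334 bp, and at the latrophilin gene Adgrl3 (chr5:81842674-81846034), at 1436 to 3361 bp. Cadherins and protocadherins had 9 members (0.847% against 1.30%), led by Pcdh1 (chr18:38142090-38146901, 4310 to 6652 bp) and Pcdh20 (chr14:88346161-88349268, 1262 to 8891 bp). Axon guidance genes had 9 members (0.847% against 0.823%), led by the ephrin receptor Epha7 (chr4:27960743-27967278, 1185 to 6536 bp) and the netrin receptor Unc5a (chr13:54876709-54880544, 1597 to 6138 bp). Kinase, phosphatase and second messenger genes had 8 members at 8 genes (0.753% against 0.978%). The widest were at Rgs6 (chr12:83165644-83172470, 2160 to 9772 bp) and Rgs13 (chr1:144187118-144191149, 3302 to 6697 bp), both regulators of G protein signalling. These counts were not tested. Counted by start sites within 500 kb, the synaptic list stayed lower in members (0.847% against 1.74%). The cadherin (1.98% against 1.58%), channel (5.83% against 4.25%) and kinase lists (6.77% against 4.53%) were then higher in members, and axon guidance lower (1.88% against 2.30%).

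Marker genes of other cell types had few distal peaks of any kind. The interneuron list had 1 member and 2 other distal peaks. The member was at the homeobox gene Dlx2 (chr2:71628165-71630425, 81411 bp upstream), which measured 1979 and 1554 bp in SIT, 3361 and 2412 bp on the left and 2261 and 2415 bp on the right. The astrocyte, oligodendrocyte lineage, and microglial and endothelial lists had 0 members, beside 1, 1 and 6 other distal peaks. By start sites within 500 kb these 3 lists had 4 (0.376% of members, 0.264% of other distal peaks), 3 (0.282%, 0.264%) and 4 members (0.376%, 0.388%).

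Sequence at the centre of members was richer in G and C than in other distal peaks and poorer than at promoters. In windows of 1000 bp the median GC content was 44.7% in members (quartiles 40.3 and 49.3), 42.3% in other distal peaks and 49.3% in promoter peaks present in all lists. The observed to expected ratio of CpG pairs had medians of 0.219, 0.196 and 0.343, and the median repeat-masked share was 13.3%, 15.2% and 11.3%. Between the member width quartiles GC content was 45.1% in members and 41.8% in other distal peaks. None of these features was used by the rule beyond the width and position of the peaks.

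The SP/KLF box GGGCGG, the letters read by SP and KLF family factors, was the 1 motif of 13 whose intervals over all widths did not overlap between members and other distal peaks. It was found in 195 member windows (18.3%, exact 95% interval 16.1 to 20.8), 12.3% of other distal windows (11.5 to 13.1) and 41.1% of promoter windows. The EGR site, which can overlap that box, matched in 12 member windows (1.13%, 0.585 to 1.96), 0.543% of other distal windows and 6.33% of promoter windows. The NEUROD-type E-box CAGATG matched in 58.7% of member windows and 62.2% of other distal windows, the MEF2 consensus in 21.8% and 24.6%, and AP-1 (TGAGTCA or TGACTCA) in 17.5% and 20.0%. Promoter windows were lower for each of these 3, at 51.2%, 14.4% and 15.2%. Over whole peaks, where members are longer, the same 3 were higher in members (89.7%, 47.8% and 45.0%) than in other distal peaks (80.9%, 40.05% and 33.6%). Between the member width quartiles the whole-peak shares were 93.2% and 91.2%, 48.0% and 50.6%, and 44.6% and 44.1%. Shares were close between members and other distal peaks for the E-box CACGTG (11.0% and 11.3%), the serum response element (6.40% and 5.85%), the CTCF core (4.23% and 3.43%), the NR4A response element AAAGGTCA (5.27% and 4.52%) and the TEAD site ACATTCCA (4.80% and 5.40%). The same held for the glucocorticoid response element (2.16% and 2.45%), the cAMP response element TGACGTCA (0.564% and 0.667%) and the NFI palindrome (0.094% and 0.109%). Between the member width quartiles the SP/KLF box was in 20.0% of members and 12% of other distal windows, the EGR site in 1.88% and 0.495%, the E-box CAGATG in 58.4% and 65.1%, and the CTCF core in 3.96% and 2.29%. GC content was also higher in members, as given above, and its part in the SP/KLF difference was not tested. A match says only that the letters occur in the window. The intervals cover counting error alone, neighbouring members are not independent, and the overlap of intervals is not a test.

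**Figure D5:**
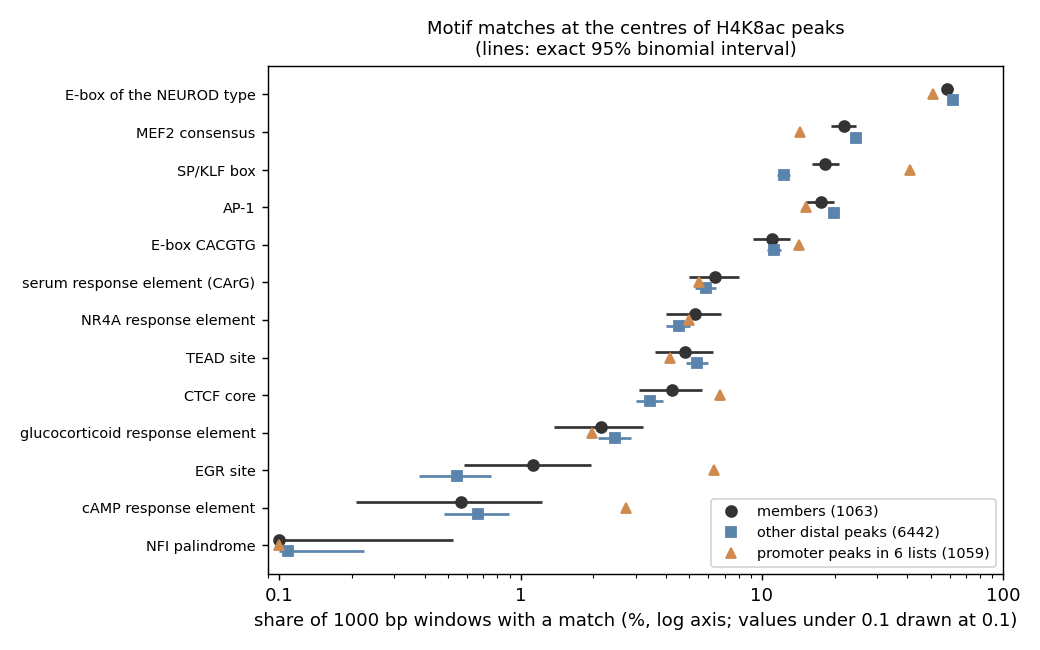
Share of 1000 bp windows at peak centres with at least 1 match to each of 13 motifs (%, log axis) in members, other distal peaks and promoter peaks in all lists, with exact 95% binomial intervals for the first 2 sets. The SP/KLF box stands at 18.3% in members, between 12.3% in other distal peaks and 41.1% in promoter peaks.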

How the data were processed

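CUT&RUN for H4K8ac, H3K27me3 and IgG was run on 60 samples. The authors deposited 1 peak table per mark and group, in which the samples of a group were combined. Per the labels, reads were checked with FastQC 0.11.9, aligned to mm10 with Bowtie2 2.4.1, called with SEACR and annotated with ChIPseeker 1.8.6. The study's methods name the stringent SEACR setting with a threshold of 0.01 and promoters within 3 kb of a start site. They also state that 3 exercised H4K8ac samples of the separate isolations and 1 of SIT were left out for a high false discovery rate. The tables give the start, end, width and distance of each peak in bp, with no signal, score or read count, so depth is unknown. IgG was not analysed here.

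Overlap was at least 1 bp. The width of a list over a member is the summed width of its peaks that overlap the member. Lists are single values, so no test was run. Members were compared with other distal peaks of the sedentary right list, and width ratios with all peaks present in 6 lists. Exact binomial intervals (95%, scipy 1.17.1) cover counting error only. Gene positions came from GENCODE M21 and sequence from GRCm38.p6. The overlap functions were tested on 900 simulated peaks. Named members were the widest 5, the 3 farthest and nearest, the 5 genes with most members, leading members of 12 gene lists, the most extreme 3 ratios in each direction, edge cases, the widest group and the widest member with H3K27me3. The members and lists were chosen with earlier results of these data known. Alternatives changed the overlap rule, anchor list, width scale, chromosomes, window and distances. Some members that this rule names are not reported here.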

Additional observations from a re-analysis of the deposited data

Results flagged for a closer look

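Exercised over sedentary width moved in opposite directions between the arms. The median log2 ratio over members was 0.53 in SIT, with 862 of 1063 members wider in the exercised list, but -0.37 on the left and -0.58 on the right, with 337 and 190 members wider. The difference was not tested, since each list is 1 pooled value. Peaks of any class in all lists gave 0.53, -0.34 and -0.52. The median widths of the whole lists gave log2 ratios of 0.52, 0.28 and -0.26, and the exercised separate lists held 12168 and 13715 peaks against 38136 in exercised SIT. The sedentary right list is also the anchor by which members were chosen. The part of that choice, of list size and of peak calling in the difference was not tested.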

How the results depend on the processing

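No paired analysis was possible because the lists pool the samples of a group and carry no replicate numbers, and no replicate could be left out for the same reason. The number of members stayed within 1.5 times of 1063 when anchored on any other list, in merged regions, or without any 1 list except exercised left (1624). It fell to 430 when each list had to cover at least 50% of the member and to 262 at a reciprocal 50% with a single peak. No exercised over sedentary median width ratio changed sign under the alternatives run. For the right ratio over covered bases the sign was fixed by the choice of anchor.

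Divided by list medians, the median log2 width ratios were 0.0079 (SIT), -0.66 (left) and -0.32 (right). Over bases of the member covered they were 0.28, -0.20 and -0.75. The sedentary right list is the anchor and covers every member whole, so the right value on this scale could not be positive. Merged regions gave -0.68 on the right. Chromosomes 1 to 14, an alternative chosen after seeing the data, gave -0.45 on the left, 0.0848 for sedentary left over sedentary right and -0.44 for sedentary SIT over sedentary left. Division by list medians, also chosen after seeing the data for these contrasts, reversed sedentary SIT over sedentary right from -0.28 to 0.29. It gave 0.40 and 0.10 for left over right in sedentary and exercised lists, -0.16 for sedentary SIT over left and 0.62 for exercised SIT over right. The construction of the scale, the ratio of list medians, sets each shift.

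Counts of members are given here with the share over peaks of any class in all lists under the same setting in parentheses. At a fold of 1.5, wider members in SIT, left and right were 492 (46.4%), 127 (12.3%) and 47 (5.76%) and narrower members 43 (4.44%), 406 (36.7%) and 531 (46.1%). The members' own shares were 46.3%, 11.9% and 4.42% wider and 4.05%, 38.2% and 49.95% narrower. Divided by list medians, 2-fold wider members were 116 (11.8%), 28 (3.09%) and 30 (3.91%) and narrower ones 61 (5.76%), 321 (30.2%) and 164 (13.7%). The members' own shares were 10.9%, 2.63% and 2.82% wider and 5.74%, 30.2% and 15.4% narrower. On chromosomes 1 to 14, 26 members (2.68%) were wider on the left. Widths without overlap went from 14 to 8 above (0.952%) and from 48 to 108 below (9.83%) when divided by list medians, which made 0.753% and 10.2% of members.

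The median distance was 20196 bp to any GENCODE start and, as a choice made after seeing the data, 89683 bp to a protein-coding start. A promoter peak in any of 6 lists was found for 73.8% of members and 64.4% of other distal peaks. GC content was 44.2% over whole peaks, against 42.0% in other distal peaks. The repeat-masked share was 12% in 500 bp windows and 17.2% over whole peaks, and the SP/KLF box share 10.3% and 37.4%. Within 50 kb, 445 members (41.9%) had a member neighbour, and 67.7% of all distal peaks a distal one. By start sites within 500 kb, chosen after seeing the data, the lists had 33 (activity-induced, 3.10% of members against 1.85% of other distal peaks), 42 (transcription factors), 22 (receptors, 2.07% against 1.10%), 62 (channels), 9 (synaptic adhesion), 21 (cadherins), 20 (axon guidance), 72 (kinase and second messenger) and 3 (interneuron, 0.282% against 0.326%) members.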
